A study of Arabidopsis thaliana with 17 samples.

Results

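Seedlings that had recovered from one mild heat treatment were compared with seedlings that had never been heated. Both groups were wild type Arabidopsis thaliana of accession Col-0, collected as whole seedlings at 7 d of age. The primed seedlings had spent 1 h at 37 °C when they were 4 d old and had then been returned to normal growth for 3 d, and the naive seedlings had stayed under normal growth throughout. The comparison takes 2 primed and 3 naive arrays, chosen by their labels, which is 5 of the 17 arrays of the series. All seeds were cold-stratified and the plants grew on sucrose-containing MS medium in long days (16 h of light), at 22 °C. The series also holds wild type seedlings heated for 1 h at 7 d (3 triggered arrays), wild type seedlings given both heat treatments (3 primed and triggered arrays), and 6 arrays of hsfa2 (SALK_008978), a knockout line of the heat shock factor gene HSFA2, with 2 naive, 2 triggered and 2 primed and triggered. Arrays of one group are labelled as biological replicates and nothing more is said of their origin. The p-values below rest on the spread between such arrays, pooled over all 7 groups of the series and not taken from the naive and primed arrays alone. Because RNA came from whole seedlings, a shift in the share of a cell type and a shift in RNA per cell cannot be told apart.

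Heat acclimation in plants rests on heat shock transcription factors, which switch on genes for protein chaperones within minutes of warming. Small heat shock proteins hold unfolding proteins in a soluble state, HSP70 and HSP100 chaperones refold them or pull aggregates apart, and co-chaperones such as Hop and Fes1A steer clients between these machines. Transcripts of most of these genes decline once the heat ends, while HSFA2 and proteins such as HSA32 are known to keep the acclimated state going for days. The samples address what is left of the response in the transcripts of a seedling that has recovered.

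The 5 arrays did not fall into their labelled groups. Naive replicate 3 and primed replicate 2 were the closest pair, with 143 of 22746 probe sets at least 2-fold apart. The other 9 pairs differed at 878 to 2164 probe sets, and the 2 primed arrays differed from each other at 1608. Among all 136 pairs of the 17 arrays, naive replicate 3 with primed replicate 2 ranked the fifth closest. The 4 closer pairs were all of hsfa2 arrays. Arrays of one hsfa2 group differed at 27, 69 and 131 probe sets, and they enter the pooled spread behind the p-values below. Naive replicate 3 was further from the other naive arrays, at 1474 and 1930 probe sets, than those were from each other, at 878. It was at least 2-fold above both for 325 probe sets (1.43%) and below both for 546 (2.4%). Both primed arrays and naive replicate 3 also shared a low signal of the bacterial spike-in control bioB, 4.40 to 4.43 on the log2 scale against 6.98 to 8.14 in the other 14 arrays. In the same 3 arrays the 3′ probe set of the GAPDH control exceeded its 5′ probe set by 1.84 to 2.25 log2 units, against 0.52 to 1.69 elsewhere. Their polyadenylated spike-in controls had a mean of 9.45 to 9.93, against 8.86 in naive replicate 2 and 5.97 in naive replicate 1. The 25S ribosomal RNA control read 8.57 in naive replicate 1 and 12.01 to 12.60 in the other arrays of the comparison. The part of these differences in the results below was not tested. The results are therefore given array by array, with and without these arrays.

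**Figure D1:**
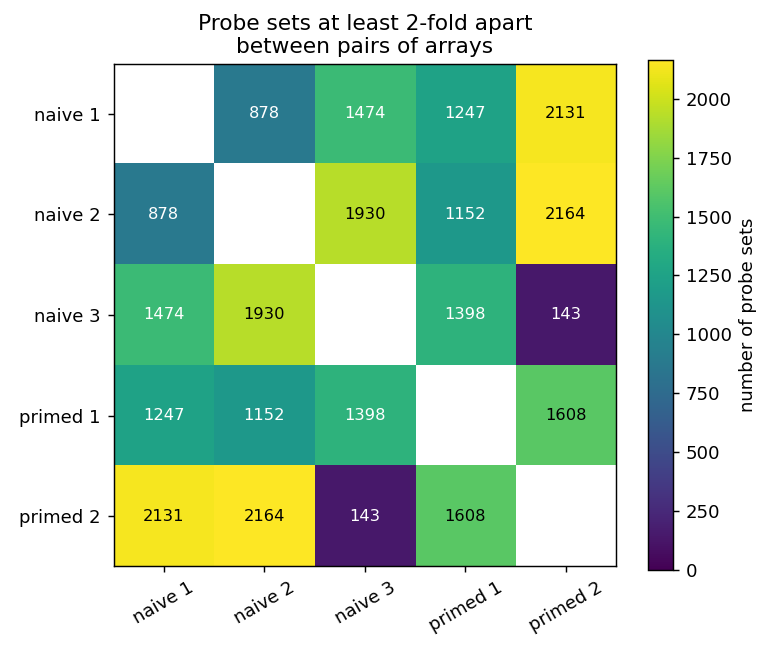
Number of probe sets at least 2-fold apart between each pair of the 3 naive and 2 primed wild type arrays (22746 probe sets compared; the diagonal is blank). Naive 3 and primed 2 differed at 143 probe sets, and every other pair at 878 or more.

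The labelled tissue was checked on marker genes. The 4 measured photosynthesis genes were among the brightest transcripts, with mean naive levels of 11.92 or more on the log2 scale. RCA, which encodes Rubisco activase, stood at 13.74, 13.72 and 13.83 in the naive arrays and 13.75 and 13.84 in the primed arrays. Of the 4 genes, RCA was the only 1 with a change above 0. Their median change was -0.14 log2 units, with a range of -0.25 to 0.03, and none was called. PYK10, a beta-glucosidase of root endoplasmic reticulum bodies, stood at 12.42, 12.57 and 12.53 in the naive and 12.90 and 12.75 in the primed arrays. Shoot and root transcripts were thus both present in every array, and 5 reference genes had a median change of 0.03 log2 units between the groups.

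One probe set passed the test between primed and naive seedlings, out of 22746 (0.0044% higher and 0% lower). It belongs to AT4G10270, a gene of a wound-responsive protein family whose transcript is also known as part of the common response of Arabidopsis to low oxygen. Its log2 level was 4.03, 4.12 and 4.19 in the naive arrays and 6.21 and 5.60 in the primed arrays. The groups did not overlap, and the lowest primed array lay 1.41 log2 units above the highest naive array. The mean rose from 4.11 ± 0.08 (SD, n = 3) to 5.90 ± 0.43 (SD, n = 2), a log2 change of 1.79 with a standard error of 0.20, or 3.47-fold (limma, adjusted p = 0.0116). At an unadjusted p under 0.05 there were 2061 probe sets (9.06%), of which 1131 (4.97%) were higher and 930 (4.09%) lower in primed seedlings.

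The level of AT4G10270 after direct heat was no higher than in naive seedlings. In the triggered wild type arrays it stood at 3.90, 3.51 and 3.59, and in the primed and triggered arrays at 4.22, 3.76 and 4.07. Both hsfa2 naive arrays were at 3.92 and 3.77, and the hsfa2 triggered arrays at 3.39 and 3.79. The 2 primed arrays were therefore the only ones of the 17 above 4.22. Within the low spike-in arrays, primed replicate 1 was 2.02 and primed replicate 2 1.41 log2 units above naive replicate 3. As naive replicate 3 was the highest naive array for this gene, the 1.41 repeats the gap given above and is no separate evidence. The call was lost with only the 11 wild type arrays in the fit (limma, adjusted p = 0.183) and with only the 5 arrays (0.966). It was lost too with the low spike-in arrays as a block (limma, adjusted p = 0.618, log2 change 1.71). Only the naive group has arrays on both sides of that block. The blocked change, here and below, is therefore the primed mean minus naive replicate 3, and naive replicates 1 and 2 drop out of it. The call was also lost without naive replicate 1 (limma, adjusted p = 0.0961) or naive replicate 2 (0.0757), with log2 changes of 1.75 and 1.80. Without naive replicate 3 the adjusted p of AT4G10270 was 0.00574 (limma). Wherever a primed array is left out, the primed group is 1 array that is assumed to vary like the other groups, from which the spread is then taken, so such a p carries no replication within primed seedlings. On that footing the adjusted p of AT4G10270 was 0.0109 without primed replicate 1 and 0.00146 without primed replicate 2. The effect of priming on this gene in seedlings that were not heated again differed from that in seedlings heated again by 1.44 log2 units, which did not pass a test of the difference (limma interaction, adjusted p = 0.187; 0.0176% of probe sets passed it).

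**Figure D2:**
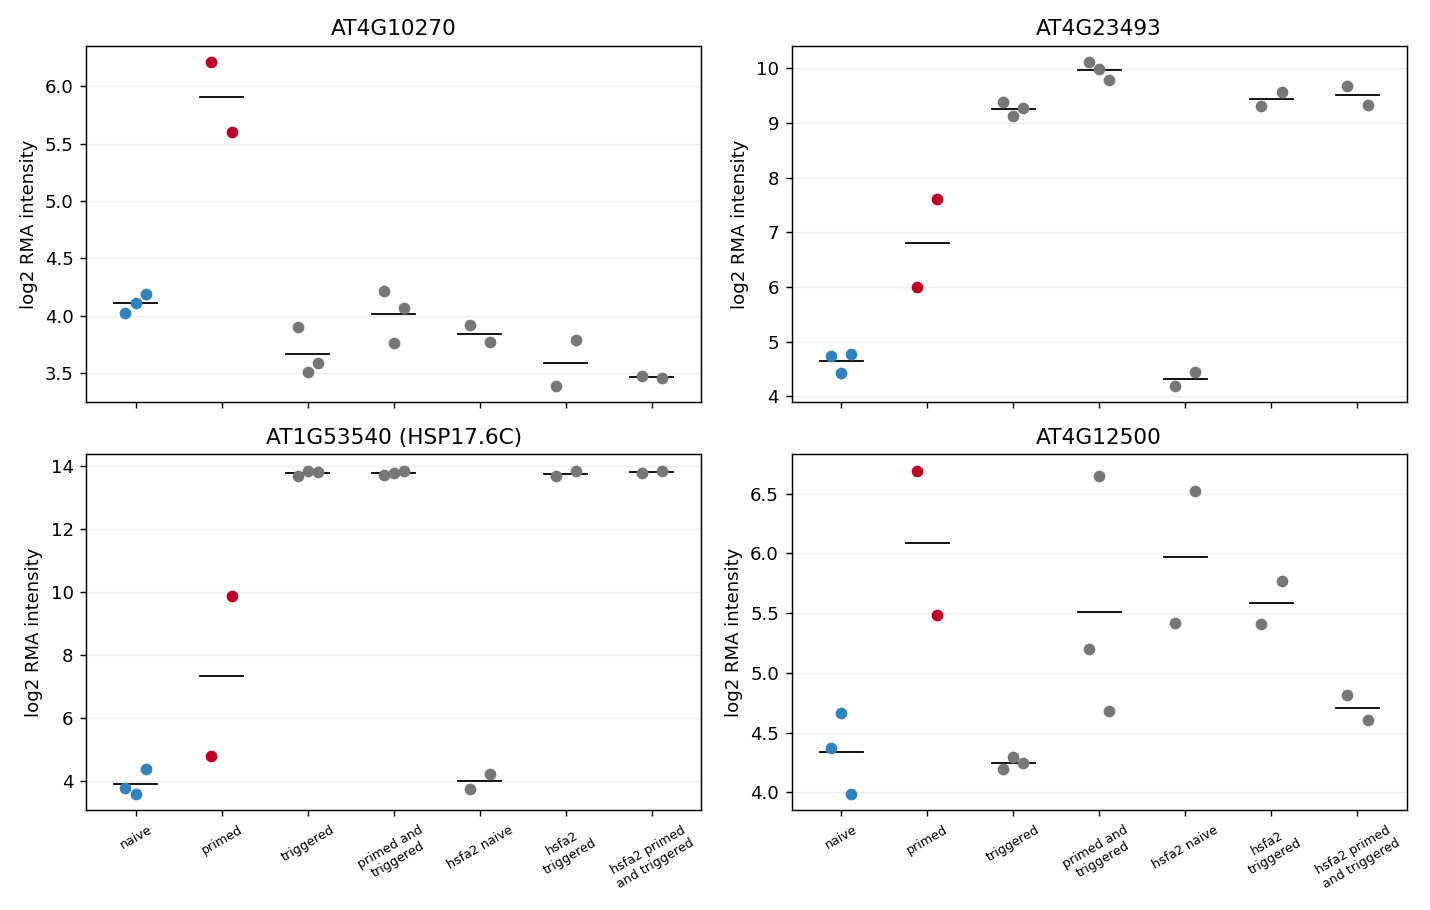
Log2 RMA intensity of AT4G10270, AT4G23493, AT1G53540 (HSP17.6C) and AT4G12500 in all 17 arrays, by group; points are arrays (naive blue, primed red, other groups grey) and bars are group means. AT4G10270 is high in the 2 primed arrays alone (6.21 and 5.60), while AT1G53540 is at 9.87 in one primed array and 4.79 in the other.

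Probe sets in which both primed arrays lay outside all 3 naive arrays numbered 2169 on the high side (9.54%) and 2346 on the low side (10.3%). Only 3 were separated by 2-fold or more. They were AT4G10270 and AT4G23493 on the high side (0.00879%) and a probe set with no listed gene on the low side (0.0044%). The last stood at 11.06, 10.67 and 8.83 in the naive arrays and at 7.50 and 5.23 in the primed arrays, a change of -3.82 ± 0.72 log2 units (SE) that did not pass the test (limma, adjusted p = 0.202). Naive replicate 3 was its lowest naive array, and primed replicate 2 its lowest primed array. The 12 rises and 12 falls with the widest separation among probe sets of 1 gene are described next, and since they were selected for that separation their values are a description. The thirteenth genes on either side, AT3G52040 and AT1G54740, had gaps of 0.65 and 0.51 log2 units. Family names beside a bare locus number are general Arabidopsis knowledge.

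Among the 12 rises, AT4G23493 followed AT4G10270. Its level was 4.74, 4.42 and 4.77 in the naive arrays and 6.01 and 7.61 in the primed arrays, a log2 change of 2.17 ± 0.33 (SE) that missed the threshold (limma, adjusted p = 0.106). This transcript was strongly heat-induced, at 9.14 to 9.38 in the triggered wild type arrays, so that the primed arrays lay between the naive and the heated level. It passed the test without naive replicate 3 (limma, adjusted p = 0.019), and with the low spike-in arrays as a block its change was 2.04 (adjusted p = 1). AT3G03270, a universal stress protein known from low-oxygen responses, stood at 6.55, 6.97 and 7.18 against 8.42 and 7.91. In hsfa2 seedlings its transcript rose by heat as well, by 3.68 log2 units. AT4G23885 was the third of the 12 that heat raised in hsfa2, by 1.63 log2 units.

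The other rises were mostly transcripts that 1 h of heat did not raise in hsfa2. AT1G03820 was at 5.37, 5.23 and 5.61 in the naive and 7.55 and 6.59 in the primed arrays. AT4G11190, a dirigent family protein, was at 4.52, 4.13 and 6.15 against 7.06 and 7.04, with naive replicate 3 well above the other naive arrays. AT4G12500, a small lipid-transfer-like protein, was at 4.37, 4.66 and 3.98 against 6.69 and 5.48. AT4G12490, a neighbouring gene of the same family that was chosen after its values were seen, had a different pattern among the arrays, 5.12, 5.32 and 6.66 against 6.92 and 8.76. For AT3G15460, a Brix-domain protein of ribosome assembly, the naive arrays read 5.64, 6.17 and 6.50 and the primed arrays 7.27 and 7.36. AT5G38020, a methyltransferase of the SABATH family, read 5.61, 4.46 and 5.51 against 6.86 and 6.36. AT4G24130, AT2G47880 (a glutaredoxin) and AT1G27030 completed the 12, with changes of 1.11, 0.88 and 0.82 log2 units. Over the 12 rises the changes were 0.82 to 2.17 log2 units and the adjusted p-values 0.0116 to 0.476. Without naive replicate 3, 9 of the 12 passed the test, in a fit that called 253 probe sets higher (1.11%), and without naive replicate 1 or naive replicate 2 none did. Since the 12 were selected on these arrays, these counts are a description too.

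The 12 falls were smaller. AT5G64380, a chloroplast fructose-bisphosphatase of the Calvin cycle family, had the lowest p-value, with 8.11, 7.96 and 7.89 in the naive arrays and 7.13 and 7.24 in the primed arrays. Its change was -0.80 ± 0.12 log2 units (SE; limma, adjusted p = 0.0968). AT2G39850, a subtilisin-like protease, stood at 5.98, 6.04 and 5.92 against 4.85 and 5.10, and the gap between the groups was wider than the spread within either of them. AT1G67580, a cyclin-dependent kinase, stood between 7.71 and 8.07 in the naive arrays and at 7.20 and 7.17 in the primed arrays. MGL, methionine gamma-lyase, which breaks down methionine, stood at 7.46, 7.17 and 7.34 against 6.31 and 6.42. The widest gap of the 12 was that of AT1G66760, a MATE family efflux carrier, at 8.66, 7.37 and 7.15 against 6.06 and 6.30. AT4G22490 read 10.87, 10.31 and 10.42 against 9.35 and 9.59. AT5G63190, a protein with MA3 domains, read 10.51, 9.86 and 9.80 against 9.17 and 8.68, and AT5G01210, an acyltransferase, 9.64, 9.88 and 8.71 against 8.10 and 8.01. In both of the latter, naive replicate 3 was the naive array nearest to the primed ones. AT4G10790, a UBX-domain protein, read 7.87, 7.48 and 7.00 against 6.44 and 6.45. AT1G20390 (annotated as a pseudogene), AT5G64110 (a peroxidase) and AT3G45730 had changes of -0.87, -1.20 and -0.88 log2 units. None of the 12 passed the test. Without naive replicate 3, 5 did so, in a fit that called 289 probe sets lower (1.27%), and AT5G64380 passed on a log2(value + 16) scale. In hsfa2, 1 h of heat lowered 2 of the 12 falls and raised 0 (limma, adjusted p under 0.05), where 1111 of all 22746 probe sets were called lower. They were AT2G39850 and AT5G64110, with changes of -1.56 and -2.38 log2 units.

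**Figure D3:**
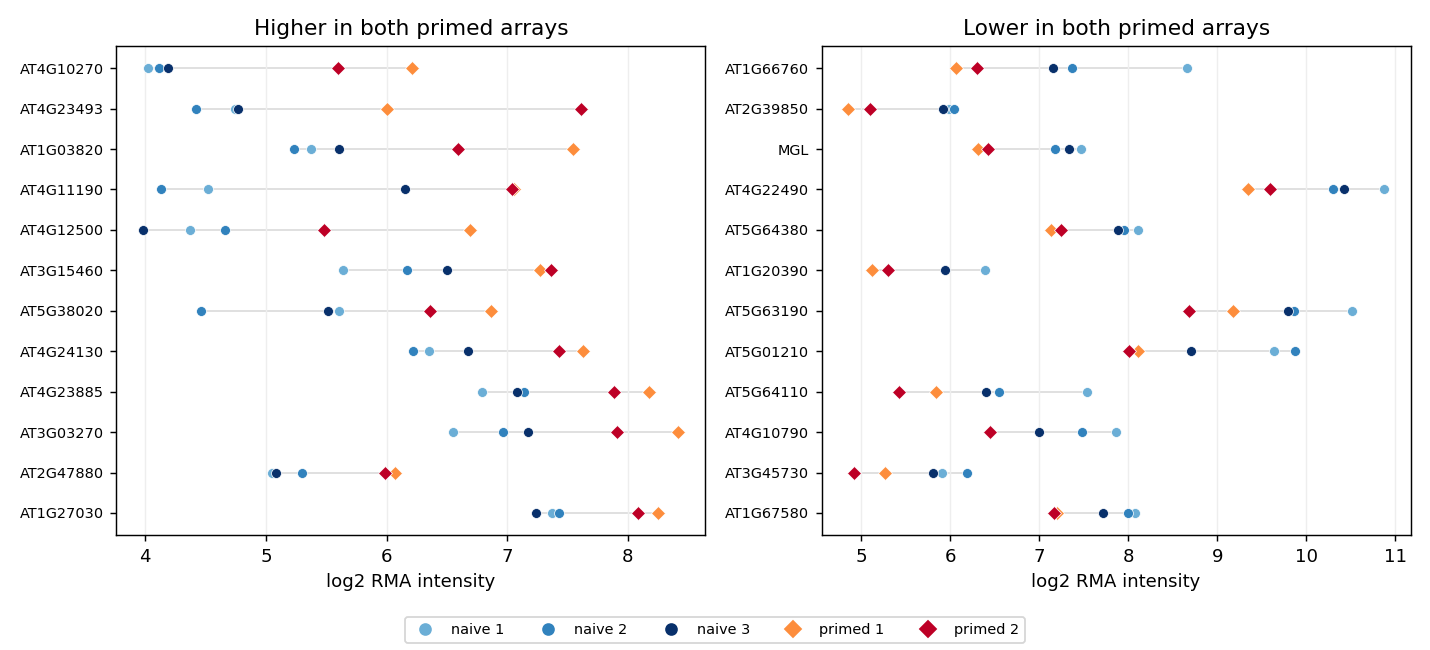
Log2 RMA intensity of the 12 genes with the widest gap upward (left) and the 12 with the widest gap downward (right) between primed and naive seedlings; each point is 1 array. Blue circles are the naive arrays and diamonds the primed arrays, and the gaps run from 1.41 log2 units for AT4G10270 to 0.51 or more for the narrowest of the falls.

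Arrays that took no part in choosing these genes gave another view of them. In wild type seedlings heated at 7 d, those primed earlier were compared with those not primed. All 12 rises had a difference above 0 there, against 48.8% of all probe sets, with a median of 0.41 and a range of 0.08 to 1.26 log2 units. None of the 12 was called in that comparison, in which 69 probe sets were called higher (0.303%), and 4 had every primed and triggered array above every triggered array (4.53% of all probe sets). In hsfa2 the same difference was above 0 for 1 of the 12 rises, against 45.2% of all probe sets, with a median of -0.29. Of the 12 falls, 5 had a difference above 0 in the wild type and 10 in hsfa2. Over all 2169 probe sets with both primed arrays on the high side, 59.6% had a difference above 0 in the wild type and 23.2% in hsfa2, and over the 2346 on the low side 37.2% and 61.8%. These figures are descriptions without a test. The genes share the same few arrays, 3 against 3 in the wild type and 2 against 2 in hsfa2, and are not independent. The hsfa2 triggered replicate 2 differed 2-fold from primed and triggered replicate 1 at 89 probe sets, and from triggered replicate 1 at 131. A difference between the genotypes was not tested for these sets.

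The list of wound-responsive and hypoxia genes had 10 measured members of 24, and AT4G10270 was the only one called. AT4G33560, of the same wound-responsive family, was at 3.33, 3.44 and 4.51 in the naive arrays and 4.91 and 4.49 in the primed arrays. Primed replicate 2 thus did not exceed naive replicate 3, although both primed arrays were above the other naive arrays, and the gene passed the test without naive replicate 3 (limma, adjusted p = 0.0125). With the low spike-in arrays as a block its change was 0.20 log2 units in place of 0.95. AT5G10040, one of the hypoxia-responsive unknown proteins, was near the low end of the array scale, at 2.75, 2.92 and 2.82 against 3.12 and 3.05. AT3G10020 stood at 10.65, 11.32 and 8.11 against 9.17 and 8.82, and CML38, a calmodulin-like calcium sensor, at 6.05, 6.08 and 4.13 against 4.72 and 4.35. In both, naive replicate 3 was below the primed arrays and the other naive arrays were above them. PDC2, a pyruvate decarboxylase of ethanol fermentation, read 9.20, 9.49 and 6.57 against 8.74 and 6.35, which set naive replicate 3 and primed replicate 2 apart from the rest. AT4G27450 was at 9.82 and 10.14 in the primed arrays and 10.07 to 10.47 in the naive arrays. HRA1 (AT3G10040), a repressor of hypoxia-response genes, AT4G24110 and AT1G33055 changed by 0.10, 0.08 and 0.12 log2 units. The list's median change was 0.09, against -0.0026 over all probe sets, and 6 of the 10 were above 0.

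Small heat shock proteins were high in 1 of the 2 primed arrays. Of 18 genes on the list 10 were measured, all with a mean above naive, and primed replicate 2 was above every naive array for 10 of 10 (24.7% of all probe sets). Primed replicate 1 was above every naive array for 5 of the 10 (23.5% of all probe sets). The median over the list, relative to the naive mean, was 2.37 log2 units in primed replicate 2 and 0.24 in primed replicate 1, and -0.24 to 0.16 in the naive arrays. No member passed the test. With primed replicate 2 as the only primed array, whose spread is then borrowed from the other groups, 7 of the 10 were called, in a fit that called 38 probe sets higher in all (0.167%). With primed replicate 1 as the only primed array none was, of 61 called higher in all (0.268%), and the list's median change was 0.24 in place of 1.40.

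HSP17.6C (AT1G53540), a cytosolic small heat shock protein, stood at 3.76, 3.57 and 4.38 in the naive arrays and at 4.79 and 9.87 in the primed arrays. The difference of 5.08 log2 units between the primed arrays was the largest of any probe set with 1 gene, and the group difference of 3.42 ± 0.93 (SE) did not pass the test (limma, adjusted p = 0.379). Its level after 1 h of heat was 13.69 to 13.84 in the triggered wild type arrays, so primed replicate 2 lay between the naive and the heated level. HSP15.7 (AT5G37670), a peroxisomal member, read 4.48, 5.08 and 5.39 against 5.74 and 9.53. HSP17.6B (AT2G29500), also cytosolic, read 5.47, 5.29 and 4.98 against 5.54 and 9.07. ATHSP22.0, which enters the endoplasmic reticulum, read 4.08, 3.99 and 3.95 against 4.21 and 6.95. For these 4 genes primed replicate 1 lay 0.07 to 0.41 log2 units above the highest naive array.

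The members of mitochondria, AT1G52560 (HSP26.5) and AT5G51440, differed in the same way. HSP26.5 was at 3.45, 3.18 and 4.09 in the naive and 4.16 and 6.06 in the primed arrays, and AT5G51440 at 4.04, 4.65 and 4.47 against 4.30 and 6.35. HSP17.4B (AT1G54050) read 5.30, 5.56 and 6.43 against 6.04 and 8.01, and AT2G19310 (HSP18.5) 7.37, 8.42 and 8.13 against 7.58 and 9.41. In the last 3 of these genes primed replicate 1 was within the range of the naive arrays. AT4G21870 (HSP15.4) and AT5G47600 (HSP14.7), which were not called higher after heat in hsfa2, had the smallest changes of the list, 0.37 and 0.40 log2 units. Set against naive replicate 3 alone, the array closest to it, primed replicate 2 had a median of 1.93 log2 units over the list. That it was higher for 10 of 10 members follows from its place above every naive array. Primed replicate 1 was higher for 6 of 10 with a median of 0.06. Over all 22746 probe sets, primed replicate 2 was above naive replicate 3 for 10256 and primed replicate 1 for 10179.

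**Figure D4:**
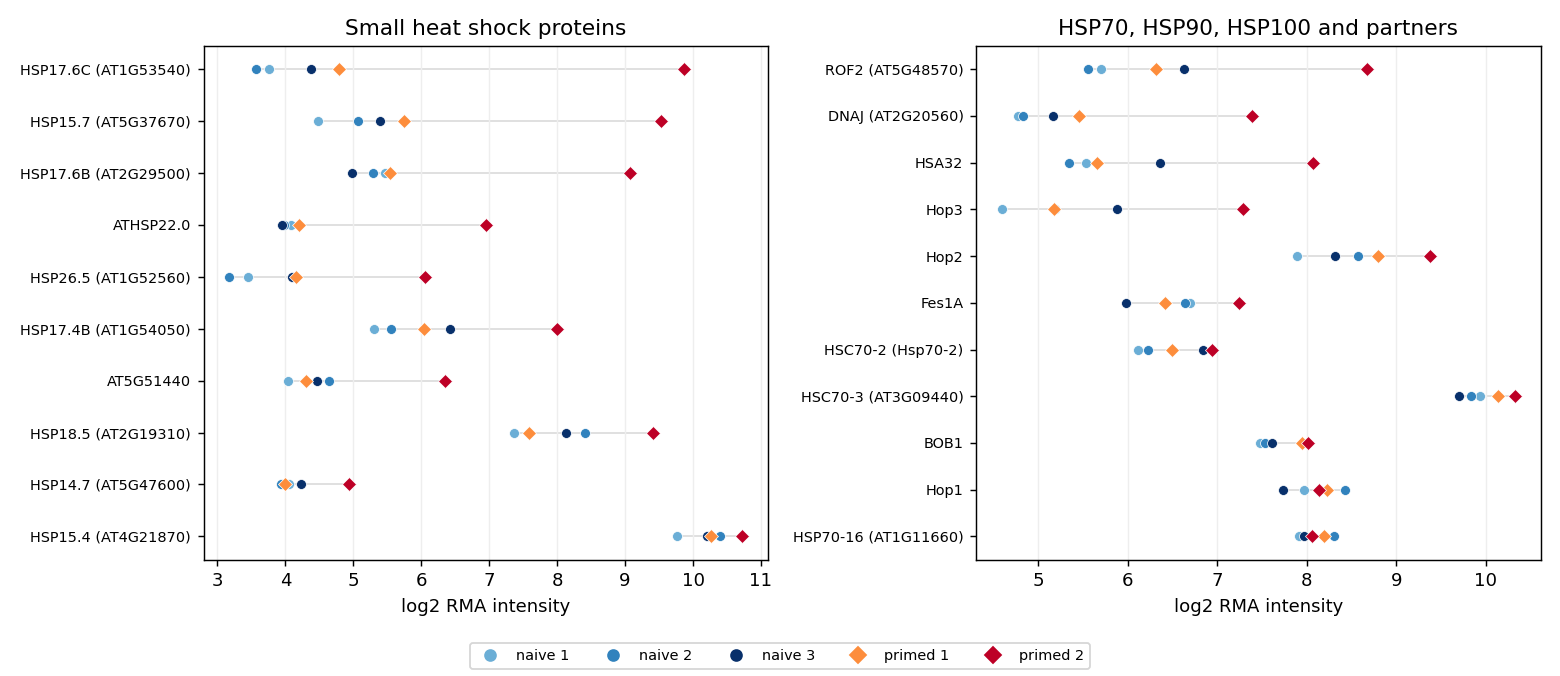
Log2 RMA intensity of the 10 measured small heat shock proteins (left) and the 11 measured HSP70, HSP90 and HSP100 chaperones and partners (right) in each naive (circles) and primed (diamonds) array. Primed 2 is the rightmost point for all 10 small heat shock proteins, while primed 1 lies at or near the naive points.

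The larger chaperones and their partners were measured for 11 of 32 genes, and primed replicate 2 was above every naive array for 9 of them (24.7% of all probe sets). AT2G20560, a DnaJ co-chaperone of HSP70, stood at 4.77, 4.83 and 5.16 in the naive and 5.45 and 7.39 in the primed arrays. ROF2 (AT5G48570), a peptidyl-prolyl isomerase that binds HSP90 and HSFA2, stood at 5.70, 5.56 and 6.62 against 6.31 and 8.68. HSA32, the protein known for keeping acquired thermotolerance, stood at 5.54, 5.35 and 6.36 against 5.65 and 8.07. Hop3, which links HSP70 to HSP90, stood at 4.59, 5.19 and 5.88 against 5.17 and 7.28. In ROF2, HSA32 and Hop3 primed replicate 1 was below naive replicate 3, and naive replicate 3 was itself the highest naive array.

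Both primed arrays were above the naive range for 4 of the 11 genes (9.54% of all probe sets). AT2G20560 was one of them, and in the other 3 primed replicate 1 was within 0.58 log2 units of primed replicate 2. All 4 were also raised by heat in hsfa2, by 2.75 to 7.66 log2 units. HSC70-3 (AT3G09440), a cytosolic HSP70 that is also expressed without stress, read 9.94, 9.83 and 9.70 against 10.13 and 10.33, a change of 0.41 ± 0.11 log2 units (SE; limma, adjusted p = 0.379). Hop2 read 7.89, 8.57 and 8.31 against 8.80 and 9.38. BOB1, a NudC-type small chaperone needed for development and thermotolerance, read 7.48, 7.54 and 7.61 against 7.94 and 8.02. Fes1A, an exchange factor of HSP70, read 6.69, 6.64 and 5.98 against 6.42 and 7.24, with primed replicate 1 inside the naive range. Hsp70-2, Hop1 and AT1G11660 (HSP70-16) had changes of 0.32, 0.14 and 0.06 log2 units. The list's median change was 0.44, with 0.80 in primed replicate 2 and 0.18 in primed replicate 1, and no member passed the test. With primed replicate 2 as the only primed array, 4 of the 11 were among the 38 probe sets called higher (0.167%), again with a spread borrowed from the other groups. Of 4 measured folding genes of the endoplasmic reticulum, BZIP28, a membrane-bound sensor of unfolded proteins, had the largest change, with 8.15, 7.85 and 7.79 against 7.64 and 7.54 (-0.34 ± 0.16 log2 units, SE; limma, adjusted p = 0.544).

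Heat-induced transcripts as a class were then followed through each primed array. The class was set on hsfa2 arrays, which the comparison does not use, as probe sets at least 2-fold higher after 1 h of heat with an adjusted p under 0.05, and it had 571 members (2.51%). Primed replicate 2 was at least 2-fold above every naive array for 65 probe sets (0.286%), and 38 of these were in the class, which is 6.65% of the class. Primed replicate 1 was at least 2-fold above every naive array for 146 probe sets (0.642%), and 4 of these were in the class. Against naive replicate 3 alone, primed replicate 2 was at least 2-fold higher for 44 of the 571 and lower for 0, while over all probe sets it was higher for 89 and lower for 54. Primed replicate 1 was at least 2-fold above naive replicate 3 for 18 of the class (3.15%) and below it for 16 (2.8%), against 964 (4.24%) and 434 (1.91%) of all probe sets. The median of the class differed little, at 0.08 in primed replicate 2 and -0.09 in primed replicate 1 against the same array. High values in primed replicate 2 were thus limited to a small share of the heat-induced transcripts, and the middle of the class was near the level of naive replicate 3 in both arrays. The 597 heat-repressed probe sets of hsfa2 (2.62%) showed 3 at least 2-fold above and 0 as far below naive replicate 3 in primed replicate 2, and 50 above (8.38%) and 9 below (1.51%) in primed replicate 1.

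Of the 38 heat-induced probe sets that were 2-fold above every naive array in primed replicate 2, 17 had a single listed gene, and 12 of those are described above. AT5G25450, a subunit of the mitochondrial cytochrome bc1 complex, was at 6.10, 6.35 and 6.74 in the naive and 6.54 and 9.53 in the primed arrays. AT5G12110, a translation elongation factor subunit, was at 6.18, 6.29 and 8.29 against 7.24 and 10.92, and here naive replicate 3 was above primed replicate 1. AT1G30070 was at 6.04, 6.01 and 7.03 against 7.23 and 8.70. AT1G72660, a GTP-binding protein, was at 3.67, 3.82 and 4.02 against 3.71 and 5.45. AT5G35320 was at 6.21, 6.33 and 6.12 against 6.79 and 7.64. These were chosen after their values were seen. In AT1G30070 and AT5G35320 both primed arrays exceeded all naive arrays, and in the other 3 genes primed replicate 2 alone did.

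Primed replicate 1 had high transcripts of its own. Among the 77 genes with a single listing that were at least 2-fold above every naive array in it, the one with the widest gap was AT3G01260, at 5.15, 4.46 and 4.45 in the naive arrays and 7.56 in primed replicate 1, against 4.73 in primed replicate 2. It and the genes that follow were chosen after their values were seen. ChiC, a class V chitinase, read 4.76, 5.14 and 4.72 against 7.28 and 5.23. GH9B13, a family 9 glycosyl hydrolase, read 6.78, 6.63 and 6.74 against 8.66 and 6.76, and ATGSTF13, a glutathione transferase, 3.61, 3.66 and 3.98 against 5.67 and 3.63. In these genes primed replicate 1 alone was high. On the low side 19 probe sets were at least 2-fold below every naive array in primed replicate 1 (0.0835%) and 26 in primed replicate 2 (0.114%). AT3G19030 read 9.97, 9.99 and 10.03 in the naive arrays, 8.44 in primed replicate 1 and 10.17 in primed replicate 2. AT3G07350 and AT2G20670 had the same shape, with 7.96 and 8.59 in primed replicate 1 and 9.53 and 10.29 in primed replicate 2.

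Expansins and root markers had higher medians in primed replicate 1 than in primed replicate 2, and pectin enzymes had a lower one. Expansins, which loosen cell walls, and xyloglucan-modifying enzymes were measured for 15 of 36 list members, of which 14 had a change above 0 (49.5% of all probe sets) and none was called. The median change was 0.44, with 0.82 in primed replicate 1 and 0.22 in primed replicate 2. EXPA7, an expansin of root hair cells, read 5.34, 5.73 and 4.55 in the naive arrays and 6.26 and 5.74 in the primed arrays (0.80 ± 0.27 log2 units, SE; limma, adjusted p = 0.43). EXPA18, its partner in root hairs, read 6.15, 6.10 and 5.97 against 6.93 and 6.29, and EXPA4 7.89, 7.76 and 8.02 against 8.84 and 8.22. Of 14 listed markers of root and root hair 3 were measured, PYK10, EXPA7 and EXPA18. All 3 had both primed arrays above the naive arrays (9.54% of all probe sets), by 0.32 to 0.80 log2 units on average, and none passed the test. For EXPA7 the groups barely separated, with primed replicate 2 at 5.74 and naive replicate 2 at 5.73. With the low spike-in arrays as a block, the median of the expansin list was 0.13 in place of 0.44. HRGP1, a wall glycoprotein, read 7.13, 6.98 and 6.81 against 8.09 and 7.24, and PME61, a pectin methylesterase, 3.69, 3.80 and 3.81 against 4.54 and 4.20 (0.60 ± 0.13 log2 units, SE; limma, adjusted p = 0.299). Over all 4 measured pectin enzymes the median, relative to the naive mean, was 0.03 in primed replicate 1, 0.65 in primed replicate 2 and 0.58 in naive replicate 3. EXPA7 and EXPA18 belong to both lists, so the root markers add only PYK10 to the expansin list. The part of root tissue in these values was not tested.

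Many differences between the primed arrays ran parallel to differences among the naive arrays. Primed replicate 2 was at least 2-fold above primed replicate 1 for 518 probe sets (2.28%) and below it for 1090 (4.79%). Of the 518, 484 were also higher in naive replicate 3 than in the mean of the other naive arrays, and of the 1090, 989 were also lower. Across all 22746 probe sets the difference between the primed arrays had a Pearson r of 0.60 with the difference between naive replicate 3 and the other naive arrays. These are 5 separate arrays, but the probe sets share them and are not independent. In both contrasts at once, 240 probe sets were at least 2-fold higher, 433 at least 2-fold lower and 8 went opposite ways by that much.

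Genes at the low end of this shared difference are described first. GI, or GIGANTEA, a component of the circadian clock and the only clock gene measured of 21 listed, stood at 9.42, 9.41 and 6.47 in the naive arrays and 8.86 and 6.28 in the primed arrays. CCL, a transcript known to be under clock control, stood at 13.01, 13.51 and 10.93 against 12.49 and 9.72. COR15B, a cold-regulated chloroplast protein, stood at 7.61, 7.49 and 4.29 against 6.77 and 4.51. In each of the 3, naive replicate 3 and primed replicate 2 were at least 2-fold below every other array of the comparison. PORB, an enzyme of chlorophyll synthesis, read 11.15, 11.29 and 8.25 against 10.88 and 8.71. LTI30, a dehydrin, read 10.00, 9.69 and 7.72 against 10.71 and 7.26, and COR15A 8.20, 5.65 and 4.85 against 7.34 and 4.03. AT3G62550, a protein of the universal stress family, read 12.61, 12.64 and 8.24 against 11.77 and 6.93, and AT1G56300, with a DnaJ domain, 9.92, 10.77 and 3.93 against 9.46 and 5.03. AT4G16146 read 8.82, 9.84 and 5.30 against 8.06 and 4.53, and AT2G39920 6.74, 7.76 and 3.40 in the naive arrays against 6.91 and 3.40. AT1G76960 followed with 7.03, 6.45 and 4.74 against 7.65 and 4.35. AT3G02480, a late embryogenesis abundant protein, was the exception among the 8 falls. Its naive replicate 2, at 4.53, was below naive replicate 3, at 4.98. In COR15A naive replicate 2 was also nearer to naive replicate 3 than to naive replicate 1.

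At the high end, AT2G27420, a cysteine protease, read 4.49, 3.60 and 8.14 in the naive arrays and 4.20 and 7.85 in the primed arrays. HYH, a light-signalling bZIP factor related to HY5, read 6.12, 5.51 and 8.22 against 6.80 and 8.68. In both genes naive replicate 3 and primed replicate 2 were above the other 3 arrays. AT2G43620, of the chitinase family, read 4.92, 4.28 and 6.55 against 4.42 and 8.10, and AT1G47400, a small peptide gene of iron uptake (IMA1), 3.70, 5.58 and 6.40 against 3.54 and 6.80. AT3G28270 read 7.71, 4.95 and 8.18 against 6.48 and 9.93, with a wide spread among the naive arrays. The small heat shock proteins that differed most between the primed arrays differed little among the naive arrays. HSP17.6C differed by 5.08 log2 units between the primed arrays and by 0.71 between naive replicate 3 and the other naive arrays, and HSP17.6B by 3.53 and -0.40. The hour at which each sample was collected is not in the labels, and the series' design text places the heat treatments in the morning. Its part in these values was not tested. Of the genes named for this shared difference, GI, CCL, COR15B, PORB and HYH were chosen after their values were seen. GI and COR15B are also members of gene lists. The others were among the 8 rises and 8 falls with the largest difference between the primed arrays. Their large difference there follows from that choice.

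**Figure D5:**
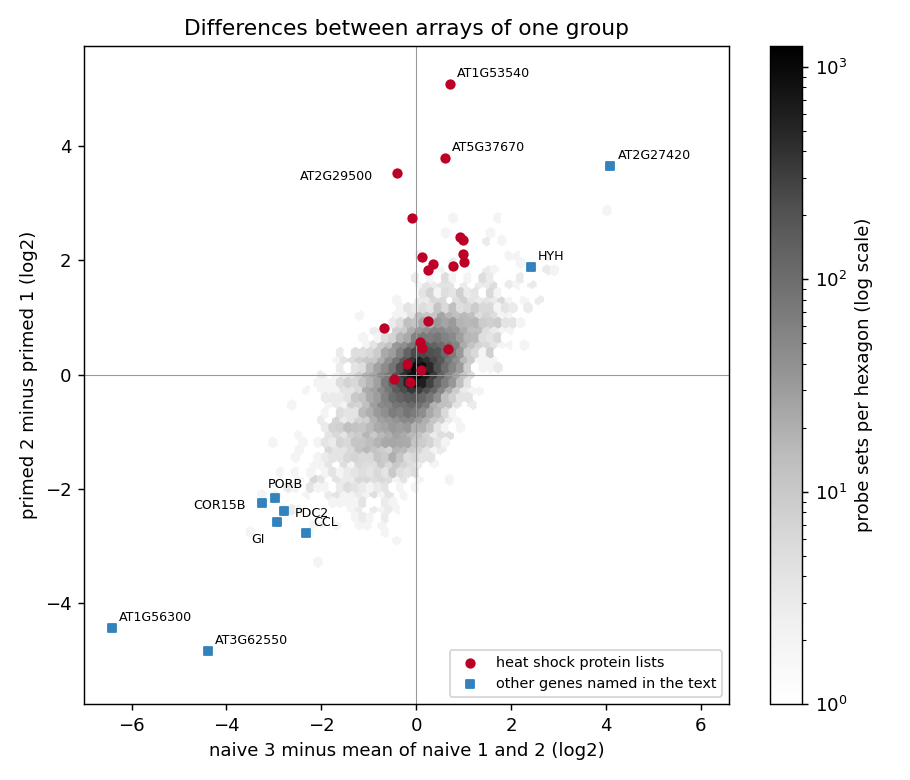
Difference between the primed arrays (vertical) against the difference between naive 3 and the mean of naive 1 and 2 (horizontal), in log2 units, for 22746 probe sets (grey hexagons, log colour scale), with genes of both heat shock protein lists in red and other genes in blue. The cloud is tilted upward (Pearson r 0.60), and AT1G53540 lies at 5.08 on the vertical and 0.71 on the horizontal axis.

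Remaining groups showed small or mixed values, and no member was called. Among 43 UDP-glycosyltransferases, 15 had a change above 0 (49.5% of all probe sets), and the median was -0.08. Both primed arrays were below all naive arrays for 8 of the 43 (10.3% of all probe sets) and above for 1 (9.54%). UGT71C4 read 9.06, 8.35 and 8.47 in the naive arrays and 8.09 and 7.61 in the primed arrays, and UGT76C1, an enzyme acting on cytokinins, 6.71, 6.48 and 6.81 against 6.13 and 6.27. Of 24 cytochrome P450 genes 10 were above 0, and of 12 glutathione transferases 11 were. For none of the 12 were both primed arrays above all naive arrays (9.54% of all probe sets). SAPX, the stromal ascorbate peroxidase of chloroplasts, had tight naive values of 8.95, 8.99 and 8.99 and primed values of 9.45 and 9.76 (0.63 ± 0.24 log2 units, SE; limma, adjusted p = 0.484). HIS1-3, a linker histone known for drought induction, read 8.19, 7.10 and 6.05 against 5.97 and 5.10, a change of -1.58 ± 0.47 (SE; limma, adjusted p = 0.393) with a naive range of more than 2 log2 units. STZ (ZAT10), a zinc finger factor of the rapid stress response, read 8.11, 9.03 and 4.67 against 5.80 and 4.88, and it passed the test without naive replicate 3 (limma, adjusted p = 0.000959). With the low spike-in arrays as a block its change of -1.94 log2 units turned to 0.66. That value is again the primed mean against naive replicate 3 alone. WES1 (GH3.5), which conjugates auxin, read 8.45, 7.33 and 8.97 against 7.08 and 7.76.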

How the data were processed

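RNA of whole seedlings was hybridised to Affymetrix Arabidopsis arrays, and the comparison uses 3 naive and 2 primed wild type arrays out of 17 arrays in 7 groups. The authors deposited intensity values on a linear scale, made with RMA per the submitters' processing notes. Which version and settings of RMA were used is not stated in the labels. The log2 of each value was taken, 64 control probe sets were dropped from 22810, and 22746 were tested. The fit, made with limma 3.58.1 (R 4.3.3), took in all 17 arrays and left 10 residual degrees of freedom, and p-values were adjusted by the Benjamini-Hochberg method over all probe sets with a threshold of 0.05. The fit was tested on simulated data. The number of arrays limits the precision. By the platform annotation 13513 probe sets had 1 gene, 503 several and 8730 were not listed, and 13436 matched RefSeq names. No coordinates are given, since the values carry no genome build.

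Genes named in the text were every probe set called, the 12 rises and 12 falls with the widest gap between the groups, the 8 rises and 8 falls with the largest difference between the primed arrays, the measured members of 4 gene lists, and up to 3 genes of each other list by lowest p. Genes outside this rule are marked as chosen after their values were seen, apart from RCA, given as a tissue marker, and the thirteenth genes by gap. The members and lists were chosen with earlier results of these data known. Alternatives covered the arrays in the fit, scaling, an offset, a filter on low values, the prior, array weights, blocks and each replicate left out. Figures were drawn with matplotlib 3.10.9.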

Additional observations from a re-analysis of the deposited data

How the results depend on the processing

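The count of calls rested on single arrays. It was 1 higher and 0 lower, and 0 were called higher with the 11 wild type arrays, with the 5 arrays or with the low spike-in arrays as a block. A filter that kept probe sets with a mean log2 of at least 6 removed AT4G10270 before the fit. Its count of 0 higher therefore says nothing about that call. With a trend and robust prior 2 were called higher, and with log2(value + 16) 1 was called lower. Leaving out 1 array gave 0 to 253 higher and 0 to 289 lower, both highest without naive replicate 3. Without naive replicate 3 and primed replicate 2 together, an alternative chosen after seeing the data, 134 were higher and 65 lower. Probe sets with both primed arrays above the naive arrays numbered 5867 against naive replicate 3 alone and 2879 to 4930 with 1 naive array left out. Those below numbered 8080 and 3197 to 4624. With 1 primed array left out the counts are of the other primed array alone, 5350 and 5611 above and 5556 and 5880 below. With the filter 1260 were above and 1216 below, among the smaller number of probe sets that pass it. Among these, 607 were 2-fold lower in primed replicate 2 than in primed replicate 1. The median change of the small heat shock proteins was 0.24 to 2.37 with 1 array left out and 0.18 without both arrays, and that of the larger chaperones 0.18 to 0.80. For the hypoxia list it was 0.25 with the block, -0.59 with the filter, which kept 4 of its 10 members, and -0.077 to 0.25 with 1 array left out. For the expansin list it was 0.13, 0.73 without both arrays and 0.22 to 0.82, and for the root markers 0.25 to 0.85. The cause was not tested. All 24 genes with the widest gaps kept their sign under every alternative run. They were selected for having both primed arrays beyond all naive arrays, so leaving out an array could not change their sign. Of the 131 named genes, which include these 24, 73 kept their sign.

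With the replicate number as a block, 1 probe set was again called higher, AT4G10270, at 1.80 log2 units (limma, adjusted p = 0.0432). Deviations from the group means had a Pearson r of 0.30 for replicate 1 and -0.43 for replicate 2. The groups share only these 2 numbers, which the labels do not tie to a common batch. With 2 primed arrays the deviations are mirror images, so each r only changes sign with the other primed array and cannot show pairing. Naive replicate 2 with primed replicate 1 had 0.43, and naive replicate 3 with primed replicate 2 had 0.60. Signal over background could not be assessed from the summarised values.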

Other observations

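Gene groups not described above had no call and mostly small differences between primed and naive seedlings. The 3 measured cell cycle genes were all slightly higher on average, led by PRL, a replication licensing factor (MCM7), with 6.96, 7.10 and 7.18 in the naive and 7.27 and 7.51 in the primed arrays (limma, adjusted p = 0.675). BCAT4, an aminotransferase of glucosinolate synthesis and the only measured gene of its list, read 9.54, 9.61 and 10.10 against 10.25 and 10.29. GH3.3, which conjugates auxin, read 6.54, 7.43 and 7.40 against 6.07 and 6.97, so that its groups overlapped. THI2.1, a thionin of the jasmonate response, was near the low end of the scale at 3.58, 3.26 and 3.56 against 3.18 and 3.15.

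Single enzymes of detoxification differed between the primed arrays. GSTU25 read 7.38, 8.15 and 5.73 in the naive arrays and 8.81 and 6.65 in the primed arrays, and GSTU28 6.06, 6.18 and 6.26 against 7.06 and 6.11. In both genes primed replicate 1 was above every other array of the comparison. CYP71B22, a cytochrome P450, had both primed arrays on the high side, at 4.94, 5.78 and 5.45 against 6.02 and 6.08 (limma, adjusted p = 0.451).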
